A study of Mus musculus with 36 samples.

Results

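The expression of 8 genes of cystine uptake and glutathione metabolism was examined in BV-2 cells, an immortalised line derived from mouse microglia. The genes were chosen by name and each matched 1 row by its symbol, so the set was 8 of the 19879 genes listed in the deposited tables. They were Slc7a11, Gclc, Gclm, Gss, Gsr, Gpx1, Gpx4 and Glrx. Their levels were described in 36 RNA-seq libraries, 3 in each of 12 groups. The groups were 6 treatments, each analysed after 4 h and after 24 h. Cells received DMSO alone or ethanol (EtOH) alone as vehicles, lipopolysaccharide (LPS) alone at 600 ng/mL, or the same LPS with 30 µM dimethyl fumarate (DMF), 30 µM monomethyl fumarate (MMF) or 6 µM cannabidiol (CBD). The vehicle was at 0.2% in all cells, where DMF and MMF were dissolved in DMSO and CBD in EtOH. The vehicle given with LPS alone was not stated in the sources used here. All groups shared the line, a wild-type genotype and medium lowered to 0.1% serum, and no group received a drug without LPS. BV-2 is a single line, so the 3 libraries of a group were repeated experiments on the same cells.

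Glutathione is a small thiol that protects cells from oxidants and electrophiles, and microglia depend on it while they produce reactive oxygen species. Slc7a11 is the light chain of the exchanger that brings cystine, the source of cysteine, into the cell in return for glutamate. Gclc and Gclm are the catalytic and the modifier subunit of glutamate-cysteine ligase, which makes the rate-limiting step, and Gss adds glycine to complete the molecule. Gsr reduces oxidised glutathione again. Gpx1 and Gpx4 are selenium-containing peroxidases that spend glutathione on hydrogen peroxide and on lipid peroxides, respectively, and Glrx (glutaredoxin) removes glutathione from modified proteins. Slc7a11, Gclc, Gclm and Gsr are known targets of the transcription factor Nrf2, which binds antioxidant response elements, and Slc7a11 is also known as a target of ATF4, which binds amino acid response elements.

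The promoters of the gene for uptake and of a ligase subunit are shown because Slc7a11 and Gclm had the widest ranges of level among the 8 genes. Windows of 250 bases before and 50 bases after the annotated start came from RefSeq on GRCm38.p6 and were available for 6 of the 8 genes. Gclc and Gsr had none. Each window is printed 5′ to 3′ along the transcribed strand, and capitals mark matches, on either strand, to TTNCATCA (the amino acid response element) or TGACNNNGC (the antioxidant response element core). The Slc7a11 window was chr3:50443564-50443863 on the minus strand, and that of Gclm was chr3:122245307-122245606 on the plus strand.
Slc7a11: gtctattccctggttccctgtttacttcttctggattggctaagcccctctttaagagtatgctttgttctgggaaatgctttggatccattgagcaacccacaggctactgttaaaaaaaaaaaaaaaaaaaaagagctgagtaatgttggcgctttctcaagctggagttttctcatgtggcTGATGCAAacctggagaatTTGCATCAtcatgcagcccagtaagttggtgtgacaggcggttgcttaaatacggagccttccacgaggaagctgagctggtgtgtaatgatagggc
Gclm: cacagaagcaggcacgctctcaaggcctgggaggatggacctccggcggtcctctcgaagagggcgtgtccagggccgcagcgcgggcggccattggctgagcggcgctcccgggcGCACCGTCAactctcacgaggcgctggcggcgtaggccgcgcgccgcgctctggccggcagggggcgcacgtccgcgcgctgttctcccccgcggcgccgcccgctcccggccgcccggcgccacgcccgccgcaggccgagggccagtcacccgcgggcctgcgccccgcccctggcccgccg
Slc7a11 held 2 matches to TTNCATCA, beginning 66 and 47 bases before the start and lying on opposite strands. Of all 32851 promoter windows, 3.97% held at least 1 such match and 0.0700% held 2 or more. Gclm held 1 match to TGACNNNGC, which began 134 bases before the start, beside 12.4% of all windows. The windows of Gss, Gpx1, Gpx4 and Glrx held neither motif. No capital run belongs to both motifs. These matches are descriptions of the letters in a short window, and no binding was measured here.

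Depth was 14110424 to 26676607 recovered reads per library, with a median of 16230584. The mitochondrial share was 1.254% to 1.396% in the 3 libraries of LPS with CBD at 24 h and 1.44% in 1 library of LPS at 24 h, against 1.83% to 2.32% in the other libraries. Of 11 microglial and macrophage markers, 10 had a median normalised count above 50, among them Csf1r, Ptprc and Cd68. P2ry12, a marker of resting microglia, was low with a median of 43.7. Of 13 markers of astrocytes, neurons, oligodendrocytes, T cells and fibroblasts, only Mbp exceeded that level, while Mog had a median of 0. Levels below are counts normalised jointly over the 36 libraries. Fold changes are differences of log2(normalised count + 1) in the 6 libraries of the comparison, tested with limma, and genes with a Benjamini-Hochberg adjusted p under 0.05 over all genes tested are referred to as called. All comparisons of a drug with LPS alone at 1 time share the 3 LPS libraries. Where groups are said not to overlap, the share of all genes without overlap was not counted. Fewer cells of a kind and less RNA per cell cannot be told apart in such bulk samples.

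All 8 genes passed the filter on low values in every comparison. Slc7a11 (chromosome 3, 49846975 to 50398063 on GRCm39) had the widest range, with group means that differed by 15.6-fold between the highest and the lowest group. Gclm (chromosome 3, 122039206 to 122064381) followed at 10.0-fold, then Gpx1 (chromosome 9, 108216102 to 108217542) at 4.44-fold, Gsr (chromosome 8, 34142551 to 34188191) at 3.63-fold and Gclc (chromosome 9, 77661817 to 77701767) at 3.45-fold. Glrx (chromosome 13, 75987987 to 75998273) varied by 2.78-fold, Gss (chromosome 2, 155405101 to 155434730) by 1.86-fold and Gpx4 (chromosome 10, 79883000 to 79892273) by 1.62-fold. Per kilobase of annotated exon, Gpx4 was the most abundant of the 8 at a mean of 1114 normalised counts, and Gss the least at 74.0, whereas per kilobase of the longest transcript Gpx1 was the least. Gpx1 was low, with 33 to 297 reads per library.

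The strand setting of the read counting was not stated, so reads of genes that overlap on opposite strands cannot be told apart. In the GENCODE annotation, 85.3% of the exon bases of Gpx1 also belonged to Gm57050, an antisense long non-coding RNA gene, so the values of Gpx1 are uncertain. Of the 6911 exon bases of Gss, 32.7% were shared with other genes. Acss2, the gene of an acetyl-CoA synthetase on the other strand, shared 1511 of these bases. Gssos2 (528) and Gssos1 (448), long non-coding RNA genes, and Myh7b (86), all on the other strand, also shared exon bases of Gss. Gclm, Gsr and Gpx4 shared 12.6%, 2.08% and 13.2% of their exon bases with other genes, and Slc7a11, Gclc and Glrx shared none.

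**Figure D1:**
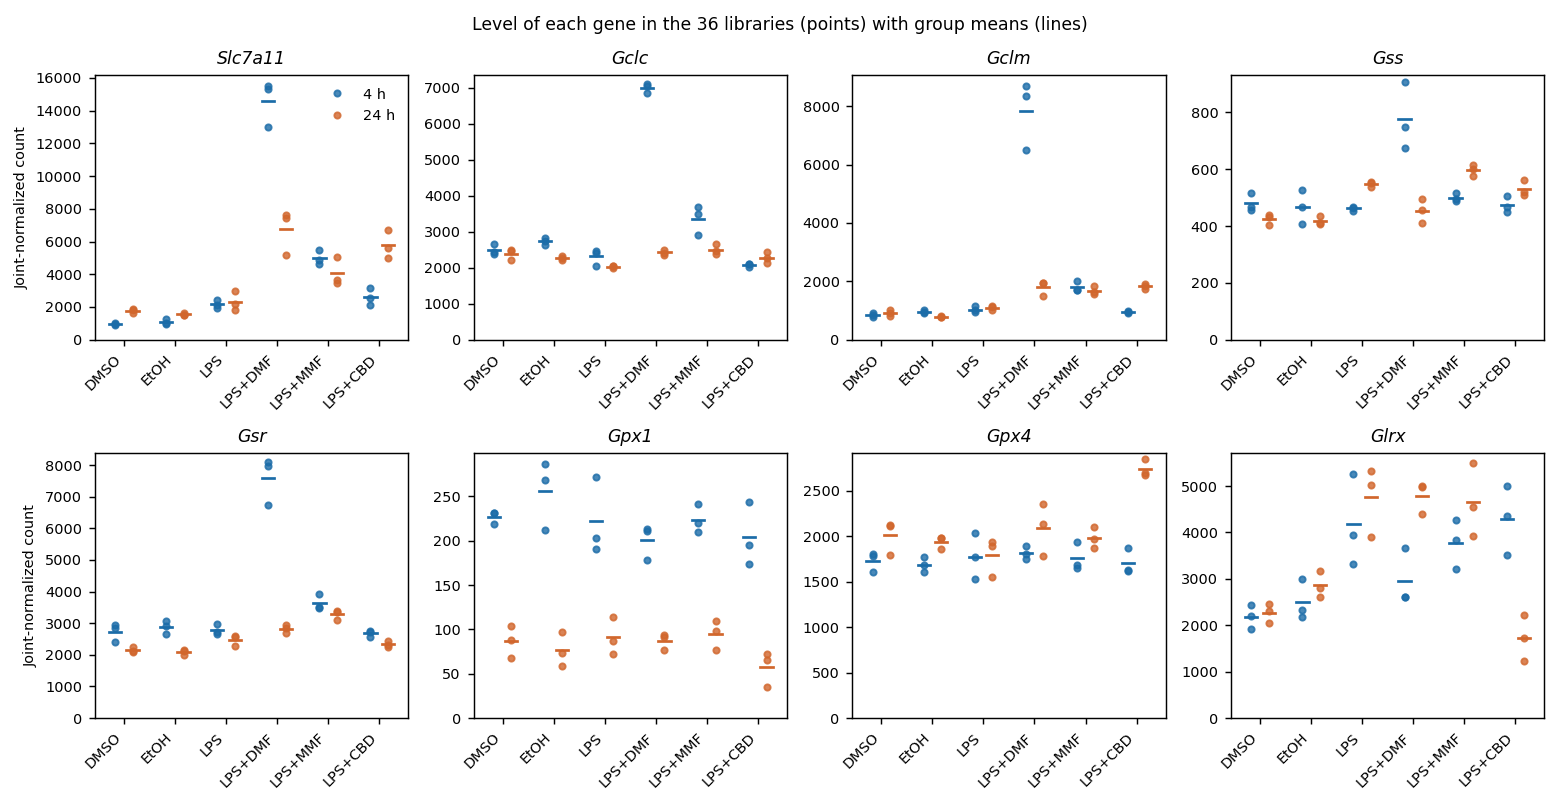
Joint-normalised counts of the 8 genes (vertical axes, linear, starting at 0) in 6 treatments at 4 h (blue) and 24 h (orange), where each point is 1 of 36 libraries and each line the mean of 3. The 3 libraries of LPS with DMF at 4 h are above all others for Slc7a11, Gclc, Gclm, Gss and Gsr, Gpx1 is lower at 24 h in every treatment, and Glrx has its lowest mean in LPS with CBD at 24 h.

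The cystine exchanger gene and glutaredoxin were higher with LPS alone than with the vehicles at 4 h, while neither ligase subunit was called. Slc7a11 was at 992, 930 and 881 with DMSO and at 2409, 2127 and 1946 with LPS at 4 h, with no overlap between the groups. On the log2 scale it rose by 1.20 ± 0.09 (SE, adjusted p = 0.000112, limma). Glrx rose from 1912, 2438 and 2196 with DMSO to 3326, 5252 and 3946 with LPS, by 0.91 ± 0.16 on the log2 scale (adjusted p = 0.00756, limma). These were the 2 of 8 genes called, both higher, where 7.70% of all genes tested were called higher. Against EtOH at 4 h the same 2 genes were called, by 1.04 ± 0.12 for Slc7a11 and 0.73 ± 0.18 for Glrx (limma), where 5.69% of all genes tested were called higher. The call of Glrx against EtOH was lost without replicate 3 of LPS or replicate 4 or 6 of EtOH (adjusted p up to 0.137, limma). The 2 comparisons share the LPS libraries. LPS libraries are numbered 1 to 3 and vehicle libraries 4 to 6, so no replicate block could be fitted between them. At both times, a difference between these sets of replicates cannot be told apart from an effect of LPS.

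At 24 h the LPS libraries differed from the vehicles in glutathione synthetase and again in glutaredoxin. Gss was at 432, 405 and 438 with DMSO and at 552, 556 and 537 with LPS, and it rose by 0.38 ± 0.09 on the log2 scale (adjusted p = 0.00826, limma). Acss2, which overlaps Gss, had log2 fold changes of 0.53 ± 0.19 against DMSO (adjusted p = 0.0722) and 0.37 ± 0.19 against EtOH (adjusted p = 0.202, limma). The part of Acss2 reads in these Gss values was not tested. Glrx was at 2049, 2305 and 2447 with DMSO and at 3911, 5325 and 5025 with LPS. The groups did not overlap, and Glrx rose by 1.07 ± 0.11 (adjusted p = 7.01e-05, limma). Gss and Glrx were the 2 of 8 called, beside 12.1% of all genes tested that were called higher. Slc7a11 was not called against DMSO (0.38 ± 0.15, adjusted p = 0.0909), and without replicate 1 of LPS its adjusted p was 0.00989 (limma). Against EtOH at 24 h, 5 of 8 were called, each higher, where 10.8% of all genes tested were called higher. They were Glrx (0.73 ± 0.12), Slc7a11 (0.57 ± 0.15), Gclm (0.49 ± 0.08), Gss (0.40 ± 0.09) and Gsr (0.25 ± 0.08). The call of Slc7a11 was lost without replicate 3 of LPS or replicate 6 of EtOH, and that of Gsr without replicate 2 or 3 of LPS or any 1 replicate of EtOH (adjusted p up to 0.159, limma).

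DMF with LPS gave the highest levels of the uptake and synthesis genes at 4 h. Compared with LPS alone, Slc7a11, Gclc, Gclm, Gss and Gsr rose, while Gpx1, Gpx4 and Glrx were not called. Slc7a11 stood at 12989, 15474 and 15338 in LPS with DMF, against 2409, 2127 and 1946 in LPS alone. The lowest DMF library was thus far above the highest LPS library, and the log2 fold change was 2.75 ± 0.11 (6.74-fold, adjusted p = 4.20e-06, limma). Gclm was at 8692, 6517 and 8350 with DMF and at 1144, 954 and 1008 without, a log2 fold change of 2.91 ± 0.12 (7.52-fold, adjusted p = 4.20e-06, limma). Gclc, its catalytic partner, was at 6861, 7117 and 7045 against 2477, 2056 and 2418, which was 1.60 ± 0.09 on the log2 scale (3.03-fold, adjusted p = 2.61e-05, limma). The modifier subunit thus had the larger estimated rise of the pair.

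The last enzyme of synthesis and the recycling enzyme also rose with DMF at 4 h. Gss was at 908, 674 and 749 with DMF and at 465, 468 and 454 with LPS alone, and its log2 fold change was 0.73 ± 0.12 (adjusted p = 0.00441, limma). Acss2, which overlaps Gss, had a log2 fold change of 0.48 ± 0.16 in the same comparison (adjusted p = 0.0985, limma). The part of Acss2 reads in the Gss values was not tested. Gsr was at 7964, 6733 and 8086 with DMF against 2966, 2718 and 2663, or 1.44 ± 0.09 on the log2 scale (2.72-fold, adjusted p = 4.65e-05, limma). In all, 5 of 8 were called, each higher, where 4.55% of all genes tested were called higher. The median log2 fold change of the 8 was 1.09, beside 0.01 over all genes tested. Glrx was at 2600, 3660 and 2605 with DMF and 3326, 5252 and 3946 without. The groups overlapped, with a log2 difference of -0.50 ± 0.19 (adjusted p = 0.134, limma), but the same-numbered libraries of the 2 groups deviated together, and in the paired fit with the replicate block Glrx fell (adjusted p = 0.00625, limma, with 15.1% of all genes called).

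At 24 h the DMF libraries kept a raised Slc7a11 and, to a smaller extent, raised ligase subunits. Slc7a11 was at 5188, 7424 and 7630 with DMF and at 1805, 2980 and 2195 with LPS alone, a log2 fold change of 1.54 ± 0.18 (2.92-fold, adjusted p = 0.000441, limma). Gclm was at 1513, 1944 and 1957 against 1028, 1143 and 1108 (0.71 ± 0.10, adjusted p = 0.00123, limma). Gclc was at 2410, 2505 and 2363 against 1984, 2057 and 2058 (0.25 ± 0.06, adjusted p = 0.0176, limma). None of these groups overlapped. The call of Gclc was lost without replicate 2 or 3 of LPS with DMF or replicate 3 of LPS (adjusted p up to 0.0775, limma). The 3 of 8 called were all higher, where 11.9% of all genes tested were called higher. With the replicate block, which the deviations of the libraries allowed here, 6 of 8 were called, and the share of all genes called rose to 39.1%. Gsr (0.19, adjusted p = 0.0170) and Gpx4 (0.22, adjusted p = 0.0114) were then higher and Gss (-0.28, adjusted p = 0.0246) lower with DMF in the paired limma fit. Acss2 fell by 1.25 on the log2 scale in this comparison (adjusted p = 0.000948, limma).

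MMF with LPS raised Slc7a11 and Gclm at 4 h, by less than DMF. Slc7a11 was at 4869, 5489 and 4606 with MMF against 2409, 2127 and 1946 with LPS alone, with no overlap and a log2 fold change of 1.21 ± 0.10 (2.32-fold, adjusted p = 0.00428, limma). Gclm was at 2009, 1719 and 1693 against 1144, 954 and 1008 (0.81 ± 0.10, adjusted p = 0.0205, limma). Its call was lost without any 1 of the 3 libraries of LPS with MMF or replicate 3 of LPS (adjusted p up to 0.185, limma). These 2 of 8 were among 9 genes called higher, 0.0787% of all genes tested. In either direction, 0.122% were called. Gclc (3508, 3681 and 2905 against 2477, 2056 and 2418) and Gsr (3938, 3472 and 3499 against 2966, 2718 and 2663) were apart from LPS alone, as was Gss (497, 488 and 516 against 465, 468 and 454). None of these passed the test. Gclc was at 0.54 ± 0.11 (adjusted p = 0.236), Gsr at 0.39 ± 0.08 (adjusted p = 0.245) and Gss at 0.12 ± 0.09 (adjusted p = 0.814, limma).

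No gene was called between MMF with LPS and LPS alone at 24 h, so the 8 had 0 calls and the share over all 11584 genes was 0%, while 440 genes had an unadjusted p below 0.05. The libraries of 5 members were apart, and the share of all genes that were apart was not counted. Slc7a11 was at 3468, 5068 and 3663 with MMF and at 1805, 2980 and 2195 with LPS alone (0.82 ± 0.18, adjusted p = 0.807, limma). Gclm was at 1569, 1833 and 1623 against 1028, 1143 and 1108 (0.61 ± 0.08, adjusted p = 0.0865, limma). Gsr was at 3087, 3355 and 3397 against 2282, 2549 and 2589 (0.41 ± 0.07), and Gclc at 2653, 2397 and 2468 against 1984, 2057 and 2058 (0.30 ± 0.07). Gss was at 578, 601 and 614 against 552, 556 and 537. In each of these genes the lowest MMF library was above the highest LPS library. Same-numbered libraries deviated together here, and with the replicate block 4 of 8 were called, each higher, namely Slc7a11 (adjusted p = 1.41e-10), Gclm (8.05e-08), Gsr (6.42e-06) and Gclc (0.00125) in the paired limma fit. That fit called 206 genes, or 1.78% of all tested. With 3 pairs it leaves few degrees of freedom per gene, so its p-values lean heavily on variances estimated over all genes. DESeq2 on the recovered reads called 3 of 8, Slc7a11, Gclm and Gsr, and 17 genes in all, and edgeR called 0.

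**Figure D2:**
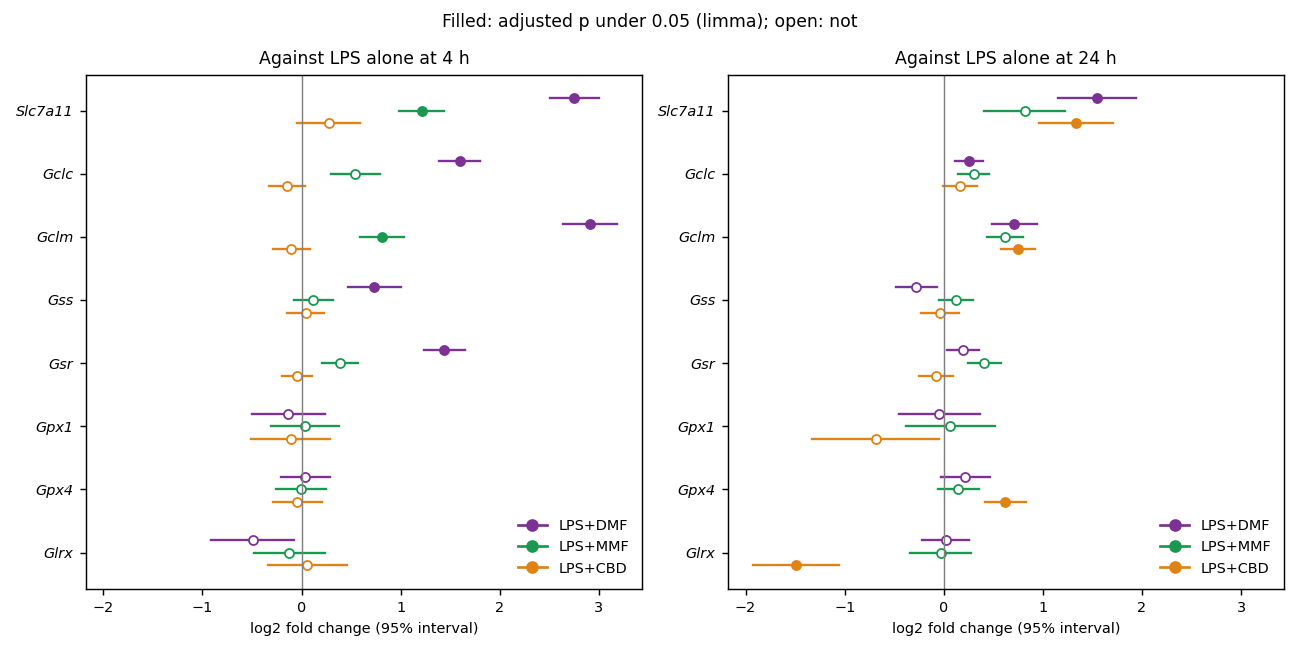
Log2 fold change of each gene in LPS with DMF (purple), MMF (green) or CBD (orange) against LPS alone (horizontal axis, with 95% confidence intervals), at 4 h on the left and 24 h on the right. Filled points had an adjusted p under 0.05 in limma. DMF lies at 2.75 for Slc7a11 and 2.91 for Gclm at 4 h, and CBD has filled points only at 24 h.

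DMF and MMF, the dimethyl and the monomethyl ester of fumaric acid, were given at the same 30 µM and could be compared directly. This was the 1 pair compared, at 2 times, with p-values adjusted over all genes tested. At 4 h, DMF gave higher levels of 5 of 8 genes than MMF, where 3.37% of all genes tested were called higher. Gclm differed most, at 2.11 ± 0.12 on the log2 scale (4.30-fold, 95% interval 1.84 to 2.37, adjusted p = 1.88e-05, limma), with 6517 the lowest DMF and 2009 the highest MMF library. Slc7a11 differed by 1.54 ± 0.10 (2.91-fold, interval 1.31 to 1.77), Gclc by 1.06 ± 0.10 (interval 0.83 to 1.28), Gsr by 1.05 ± 0.10 (interval 0.84 to 1.26) and Gss by 0.62 ± 0.12 (interval 0.35 to 0.88). The call of Gss was lost without replicate 3 of either group (adjusted p up to 0.0513, limma). The peroxidases and glutaredoxin were not called, with intervals of -0.47 to 0.14 for Gpx1, -0.16 to 0.24 for Gpx4 and -0.70 to -0.03 for Glrx. The adjusted p of Glrx was 0.168 (limma).

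By 24 h the esters differed in fewer of the genes. Slc7a11 was still higher with DMF, by 0.73 ± 0.16 (1.66-fold, interval 0.36 to 1.10, adjusted p = 0.0141, limma). Gss and Gsr were lower with DMF than with MMF, by -0.40 ± 0.09 (interval -0.60 to -0.20, adjusted p = 0.0132) and -0.22 ± 0.07 (interval -0.36 to -0.07, adjusted p = 0.0424, limma). Acss2 also differed, by -1.30 ± 0.15 (adjusted p = 0.000803, limma). For the ligase subunits, neither of which was called, the intervals included 0, at -0.19 to 0.10 for Gclc and -0.14 to 0.33 for Gclm. Gpx1 (-0.48 to 0.26), Gpx4 (-0.15 to 0.29) and Glrx (-0.20 to 0.30) were not called. The 3 of 8 called compare with 21.5% of all genes tested. The call of Slc7a11 was lost without replicate 3 of LPS with DMF or replicate 1 or 3 of LPS with MMF, that of Gss without replicate 3 of LPS with MMF, and that of Gsr without any 1 of the 6 libraries (adjusted p up to 0.142, limma).

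CBD with LPS was close to LPS alone at 4 h and apart from it at 24 h. At 4 h none of the 8 was called, where 1 gene in all, or 0.00875% of those tested, was called and 363 had an unadjusted p below 0.05. DESeq2 and edgeR called none of the 8 either, and 3 genes and 1 gene in all. Slc7a11 was at 2537, 3179 and 2141 with CBD and overlapped with LPS alone (0.27, 95% interval -0.05 to 0.59). The intervals of Gclc (-0.33 to 0.04) and Gclm (-0.29 to 0.08) excluded a rise of the size seen with DMF at that time.

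At 24 h the exchanger, the modifier subunit and the lipid peroxide peroxidase were higher with CBD, and glutaredoxin was lower. Slc7a11 was at 5016, 5584 and 6690 with CBD against 1805, 2980 and 2195 with LPS alone, a log2 fold change of 1.33 ± 0.17 (2.52-fold, adjusted p = 0.000208, limma). Gclm was at 1834, 1738 and 1917 against 1028, 1143 and 1108 (0.75 ± 0.08, adjusted p = 7.15e-05, limma). Gpx4 was at 2696, 2678 and 2852 against 1552, 1937 and 1897 (0.62 ± 0.09, adjusted p = 0.000538, limma), and these 3 CBD libraries were the highest Gpx4 values of all 36. Glrx was at 1735, 2214 and 1221 with CBD and at 3911, 5325 and 5025 with LPS alone, and fell by 1.49 on the log2 scale (SE 0.19, adjusted p = 0.000248, limma). All 4 pairs of groups were without overlap. The 4 of 8 called compare with 48.7% of all genes tested, a similar share. The mitochondrial share was lower in the CBD libraries, as given above, and its part in these values was not tested.

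The other members were not called with CBD at 24 h. Gclc was at 2262, 2128 and 2441, just above the 1984 to 2058 of LPS alone (0.17, interval -0.01 to 0.34, adjusted p = 0.0993, limma). Gss and Gsr overlapped with LPS alone. Gpx1 was at 35.0, 65.3 and 72.7 against 86.5, 114 and 72.7, with a log2 difference of -0.69 ± 0.29 (adjusted p = 0.0709, limma), and it fell in the paired fit with the replicate block (adjusted p = 0.0273, limma, with 56.7% of all genes called). The dose and the vehicle of CBD differed from those of the esters, so its values are only set beside theirs. At 24 h the log2 fold changes over LPS alone were 1.54 with DMF, 0.82 with MMF and 1.33 with CBD for Slc7a11, and 0.71, 0.61 and 0.75 for Gclm. For Slc7a11 the libraries spanned 5188 to 7630 with DMF, 3468 to 5068 with MMF and 5016 to 6690 with CBD.

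**Figure D3:**
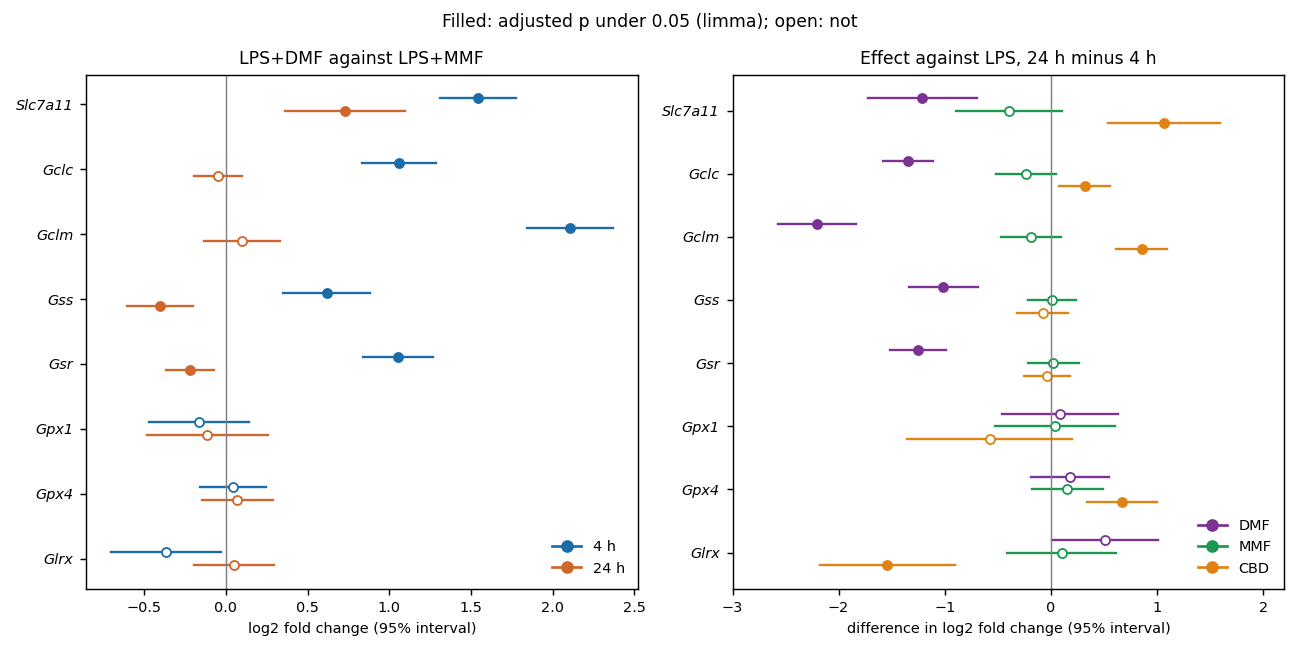
Left, log2 fold change (horizontal axis) of LPS with DMF against LPS with MMF at 4 h (blue) and 24 h (orange) for each gene. Right, the difference between the 24 h and the 4 h log2 fold change against LPS alone for DMF (purple), MMF (green) and CBD (orange). Bars are 95% confidence intervals and filled points had an adjusted p under 0.05 in limma. The DMF effect is lower at 24 h for Slc7a11, Gclc, Gclm, Gss and Gsr, and the CBD effect higher for Slc7a11, Gclc and Gclm.

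Whether a drug effect differed between the times was tested with an interaction term over 12 libraries. For DMF, 5 of 8 effects were lower at 24 h than at 4 h, where 7.89% of all genes tested were called lower. The differences were -2.20 ± 0.17 for Gclm (adjusted p = 3.75e-06), -1.35 ± 0.11 for Gclc, -1.25 ± 0.12 for Gsr, -1.21 ± 0.24 for Slc7a11 and -1.01 ± 0.15 for Gss (limma). Acss2 had a difference of -1.73 ± 0.25 (adjusted p = 0.000427, limma). For MMF none of the 8 was called, nor was any other gene (0% of 11839 tested, 385 at an unadjusted p below 0.05, 0 by edgeR). Its intervals were -0.89 to 0.11 for Slc7a11, -0.52 to 0.05 for Gclc and -0.47 to 0.10 for Gclm. The difference of DMF minus MMF was itself lower at 24 h in the same 5 genes, by -2.01 ± 0.17 for Gclm, -1.27 ± 0.12 for Gsr, -1.11 ± 0.12 for Gclc, -1.02 ± 0.15 for Gss and -0.82 ± 0.22 for Slc7a11 (limma), where 6.80% of all genes tested were called lower. For Gss and Gsr it went from above 0 at 4 h to below 0 at 24 h, as given above. The change of Slc7a11 was not called without replicate 3 of either ester group at 4 h (adjusted p up to 0.0543, limma). For CBD, 5 of 8 were called, beside 32.0% of all genes tested. The effect was higher at 24 h for Slc7a11 (1.07 ± 0.25), Gclm (0.86 ± 0.11), Gpx4 (0.67 ± 0.15) and Gclc (0.32 ± 0.11), and lower for Glrx (-1.54 ± 0.30). The call of Gclc was lost in 10 of 12 fits without 1 library (adjusted p up to 0.105, limma), the exceptions being replicate 2 of LPS with CBD at 24 h and replicate 2 of LPS at 4 h.

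The levels of several members also moved between 4 h and 24 h within a treatment. Gpx1 fell in each of the 6 treatments, least with DMF, where it fell by 1.20 on the log2 scale, and most with CBD, where it fell by 1.87. Its 18 libraries at 4 h spanned 174 to 287 and those at 24 h 35.0 to 114, without overlap. Slc7a11 rose over time with DMSO (0.90 ± 0.08), EtOH (0.55 ± 0.10) and CBD (1.14 ± 0.14), and fell by 1.14 with DMF. Gclm fell by 2.13, Gclc by 1.54, Gsr by 1.43 and Gss by 0.77 with DMF, whereas Glrx rose by 0.71 ± 0.13 (limma). With CBD, Gclm (0.93 ± 0.07) and Gpx4 (0.68 ± 0.08) rose, Glrx fell by 1.35 and Gsr fell by 0.21. Gsr also fell with DMSO, by 0.36, and with EtOH, by 0.48. The times are different libraries, and the vehicle libraries changed too, so a change over time is not by itself an effect of a drug.

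Between the times, 7 of 8 members were called in LPS with DMF (58.8% of all genes tested), 6 in LPS with CBD (63.2%), 3 in LPS with MMF (49.5%) and 2 in LPS alone (48.9%). In the vehicles 6 were called for EtOH (58.6%) and 3 for DMSO (51.6%). With EtOH the other calls were falls of Gclc (by 0.29) and Gclm (by 0.30) and a rise of Gpx4 (0.18 ± 0.06), the last lost without replicate 5 or 6 at 24 h or 4 or 5 at 4 h (adjusted p up to 0.122, limma). Gss rose with LPS (0.24 ± 0.09) and with MMF (0.25 ± 0.09), and each of these calls was lost in 5 of 6 fits without 1 library (adjusted p up to 0.145, limma). Acss2, which overlaps Gss, rose over time with LPS (2.53 ± 0.19) and MMF (2.38 ± 0.18), and also with DMF (0.80 ± 0.14), where Gss fell. The call of Gsr with CBD was lost without replicate 1 or 3 at either time (adjusted p up to 0.0674, limma). Gclc fell by 0.43 with MMF. In that treatment, same-numbered libraries deviated together, and with the replicate block 5 of 8 were called, beside 56.0% of all genes tested, Slc7a11 (-0.32, adjusted p = 0.00343) and Glrx (0.29, adjusted p = 0.00162) being added in the paired limma fit.

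LPS with a drug was also compared with the vehicle of that drug, in which LPS and the drug change together. The set of replicate numbers changes with them, as given above for LPS alone. At 4 h LPS with DMF exceeded DMSO by 3.95 ± 0.09 on the log2 scale in Slc7a11 (15.5-fold) and by 3.18 ± 0.11 in Gclm (9.05-fold). Gclc (1.48 ± 0.07), Gsr (1.47 ± 0.10) and Gss (0.68 ± 0.12) were the other 3 of the 5 genes called, all higher, where 11.4% of all genes tested were called higher. Acss2, which overlaps Gss, was at -0.035 ± 0.24 there (adjusted p = 0.933, limma). At 24 h, 4 of 8 were called higher, Slc7a11 (1.93 ± 0.13), Glrx (1.10 ± 0.08), Gclm (0.996 ± 0.11) and Gsr (0.41 ± 0.06), where 40.2% of all genes tested were called in either direction. LPS with MMF exceeded DMSO in 5 of 8 at each time, where 5.12% at 4 h and 12.5% at 24 h of all genes tested were called higher. At 4 h these were Slc7a11 (2.41 ± 0.08), Gclm (1.08 ± 0.09), Glrx (0.79 ± 0.12), Gclc (0.43 ± 0.09) and Gsr (0.42 ± 0.09). The call of Gclc was lost without replicate 1 or 2 of LPS with MMF or replicate 6 of DMSO, and that of Gsr without replicate 1 of LPS with MMF or replicate 6 of DMSO (adjusted p up to 0.103, limma). At 24 h they were Slc7a11 (1.20 ± 0.13), Glrx (1.05 ± 0.12), Gclm (0.89 ± 0.10), Gsr (0.62 ± 0.07) and Gss (0.51 ± 0.08). Acss2 was higher there as well, by 0.58 ± 0.18 (adjusted p = 0.0455, limma).

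LPS with CBD differed from EtOH at 4 h in 3 of 8 genes, where 13.6% of all genes tested were called. Slc7a11 was higher (1.31 ± 0.15), Glrx was higher (0.79 ± 0.15) and Gclc was lower, at 2097, 2031 and 2092 against 2641, 2732 and 2825 with EtOH (-0.39 ± 0.05, adjusted p = 0.00164, limma). At 24 h, 5 of 8 were called, beside 50.5% of all genes tested. Slc7a11 (1.89 ± 0.10), Gclm (1.23 ± 0.07), Gpx4 (0.51 ± 0.07) and Gss (0.35 ± 0.09) were higher and Glrx was lower (-0.76 ± 0.18). Acss2, which overlaps Gss, was lower (-0.91 ± 0.27, adjusted p = 0.0178, limma). Glrx was thus below both LPS alone and the vehicle in the CBD libraries. Between the vehicles none of the 8 was called at 4 h (0% of all genes tested called, 1051 at an unadjusted p below 0.05) or at 24 h (0.00854% called). DESeq2 called 87 genes in all at 4 h and 3 at 24 h, none of them a member, and edgeR 0 and 1. Same-numbered vehicle libraries deviated together, and with the replicate block Glrx was lower with DMSO than with EtOH at 4 h (-0.18, adjusted p = 0.0261) and at 24 h (-0.34, adjusted p = 0.0130, paired limma fit), where 7.65% and 0.171% of all genes tested were called.

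The order of the group levels differed between members. Slc7a11 was highest in LPS with DMF at 4 h (mean 14600), followed by LPS with DMF at 24 h (6747), LPS with CBD at 24 h (5763), LPS with MMF at 4 h (4988) and LPS with MMF at 24 h (4067). The first of these groups stood apart from the second, whereas neighbours from the second to the fifth overlapped. All libraries of these 5 groups were above those of LPS with CBD at 4 h (2619), LPS at 24 h (2326) and LPS at 4 h (2161). The vehicles had means of 934 to 1770, and DMSO at 24 h overlapped with LPS at 24 h. Gclm had 1 group far above the rest, LPS with DMF at 4 h (7853), then 4 overlapping groups with means from 1675 to 1830, and 7 groups from 784 to 1093. Gclc had its highest group means in LPS with DMF (7007) and LPS with MMF (3365) at 4 h, and the other 10 group means lay between 2033 and 2733.

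The subunit genes of glutamate-cysteine ligase did not keep a fixed ratio. The ratio of Gclm to Gclc counts was 0.347, 0.331 and 0.350 with DMSO at 4 h and 0.462, 0.464 and 0.417 with LPS at 4 h. In LPS with DMF at 4 h it was 1.27, 0.916 and 1.19, above every other library. At 24 h it was 0.518, 0.555 and 0.538 with LPS, 0.628, 0.776 and 0.828 with DMF, 0.592, 0.765 and 0.657 with MMF and 0.811, 0.817 and 0.785 with CBD. These are ratios of counts of genes of different length, so only their differences between groups can be read. Over the 12 group means of log2 counts, which share the same libraries and normalisation, Gclc correlated with Gsr (r = 0.94), Gclm (r = 0.87) and Gss (r = 0.73), and Slc7a11 with Gclm (r = 0.90). Gpx1 and Gpx4 had r = -0.80. The group LPS with DMF at 4 h weighs heavily in such values. Over the deviations of the 36 libraries from their group means, the highest r among the 28 pairs was 0.67, for Gclm and Gsr, and Slc7a11 and Gclm had 0.44.

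**Figure D4:**
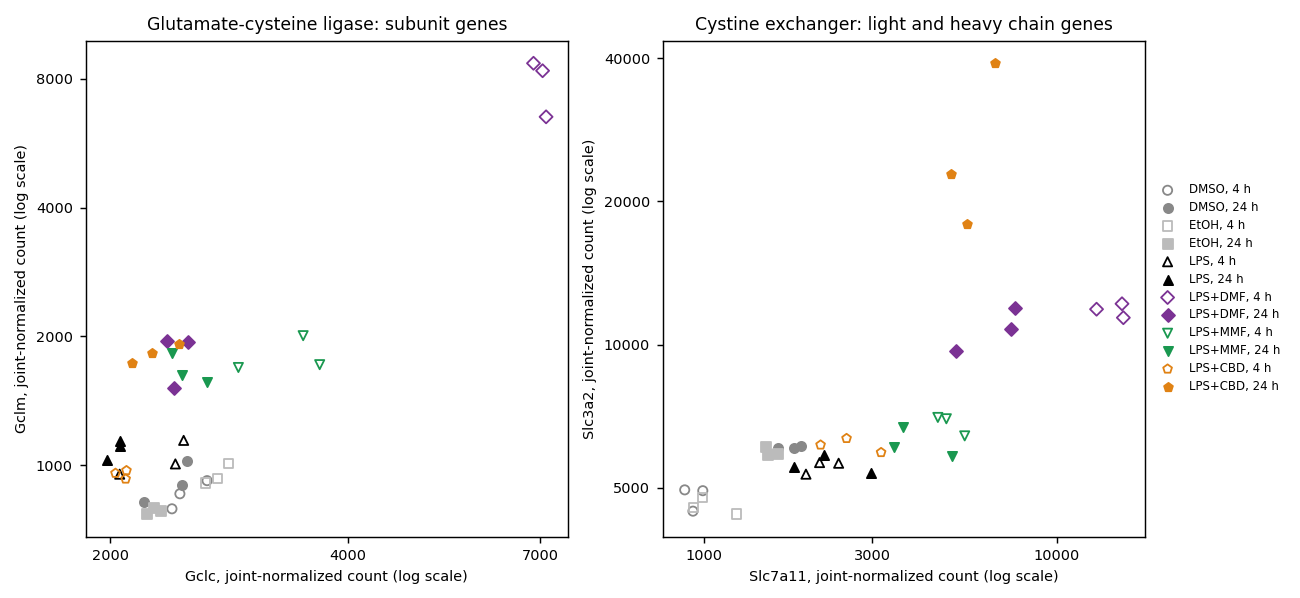
Joint-normalised counts on log axes of Gclm against Gclc (left) and of Slc3a2 against Slc7a11 (right) in the 36 libraries, with open symbols for 4 h and filled symbols for 24 h. LPS with DMF at 4 h lies at the upper right on the left and at the far right on the right, and LPS with CBD at 24 h has the highest Slc3a2 counts, from 17936 to 39028.

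Among 34 other genes of glutathione use, transport and breakdown, 24 to 26 passed the filter on low values, depending on the comparison. With DMF at 4 h, 4 of 24 were called, all higher, where 11.1% of all genes tested were called, and the list's median log2 fold change was 0.08, beside 0.01 for all genes. Chac1, which breaks down glutathione, rose by 1.72 ± 0.25, Abcc1, an export pump for glutathione conjugates, by 1.12 ± 0.13, and Slc3a2, the heavy chain that pairs with Slc7a11, by 1.09 ± 0.08 (limma). At 24 h, 10 of 25 were called, 5 in each direction, where 25.1% of all genes tested were called. Chac1 (1.20 ± 0.11), Slc3a2 (0.94 ± 0.08) and Mgst2, a microsomal glutathione transferase (0.66 ± 0.18), rose most. Ggt7 fell by 1.29, Cbs, an enzyme of cysteine synthesis from homocysteine, by 0.66 and Glrx5, a mitochondrial glutaredoxin, by 0.48. Ggt7 was near the filter, with group means of 6.00 to 20.1. At 24 h it passed through the libraries of LPS alone (17.7, 21.5 and 21.1), so its call is not independent of the filter. No list gene was called with MMF at either time or with CBD at 4 h.

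With CBD at 24 h, 16 of 26 list genes were called, 10 higher and 6 lower, or 61.5% of those tested, where 48.7% of all genes tested were called. Slc3a2 was at 22852, 17936 and 39028 with CBD and at 5544, 5385 and 5870 with LPS alone, a log2 fold change of 2.18 ± 0.23 (adjusted p = 7.67e-05, limma). It was also above the 9686 to 11947 of LPS with DMF at 24 h. Gstm1, a cytosolic glutathione transferase, rose by 1.45 ± 0.15 (limma). Ggt1, a gamma-glutamyl transferase that breaks down glutathione outside the cell, had a log2 fold change of 2.14 ± 0.33 (limma). Its group means were 4.58 with LPS alone and 23.4 with CBD. Ggt1 passed the filter on low values only through its CBD libraries (20.1, 27.1 and 23.1), so its call is not independent of the filter. Cbs fell by 1.59, Ggt7 by 1.15 and Ggct, which acts on the products of glutathione breakdown, by 1.12. Ggt7 passed the filter only through the libraries of LPS alone (17.7, 21.5 and 21.1, against 9.53, 9.33 and 6.84 with CBD). Its call is thus not independent of the filter either, and Ggt1 and Ggt7 are counted among the 16. The ratio of Slc3a2 to Slc7a11 counts was 0.914, 0.736 and 0.795 in LPS with DMF at 4 h and 4.56, 3.21 and 5.83 in LPS with CBD at 24 h, so the light chain and the heavy chain did not move in a fixed proportion. Over the 12 group means the pair had r = 0.74.

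With LPS alone against DMSO, Esd was the gene called at 4 h (0.38 ± 0.10), 1 of 24, where 14.1% of all genes tested were called. At 24 h 5 of 25 were called, where 22.7% of all genes tested were called, with Mgst2 (0.85 ± 0.19) and Abcc1 (0.38 ± 0.11) higher, Mgst3 (-0.67 ± 0.17), Gstt2 (-0.44 ± 0.14) and Hagh (-0.33 ± 0.09) lower. Against EtOH, Slc3a2 was the gene called at 4 h (0.28 ± 0.06), 1 of 25, where 10.2% of all genes tested were called, and at 24 h 2 of 25 were called, where 20.5% of all genes tested were called. These were Mgst2 (0.89 ± 0.16) and Gstt2 (-0.81 ± 0.13).

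The genes whose 12 group means were most like those of a member were sought among 10100 genes with a mean of at least 50. For Slc7a11 they were Chpf2 (r = 0.97), Procr (0.96), Blcap (0.95), Riok3 (0.93) and Mafg (0.92). For Gclm they were Srxn1 (r = 0.98), Chpf2 (0.96), Cep20 (0.96), Mthfd2 (0.96) and Prdx1 (0.95). For Gclc they were Jade3 (r = 0.95), Gsr (0.94), Desi2 (0.93), Txnrd3 (0.91) and Socs4 (0.91). Their Spearman rank correlations with Gclc were lower, at 0.601, 0.825, 0.364, 0.755 and 0.538 in this order. Chpf2 was thus named for both Slc7a11 and Gclm. With Spearman's rank correlation, 2 of the 5 genes were kept for Slc7a11, 2 for Gclc and 1 for Gclm.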

How the data were processed

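BV-2 RNA was sequenced by the authors as poly(A) libraries. Reads were trimmed with Cutadapt 4.4 and Trimmomatic 0.39 and aligned with HISAT2 2.2.1 to GRCm39, and reads per Ensembl gene were counted with HTSeq 2.0.3 (per the submitters' processing notes). The authors deposited 30 tables, 1 per pair of groups, whose library columns hold signal, that is, read counts divided by DESeq2 size factors. Their own fold changes and p-values were not used. Dividing by the step between values gave back whole reads in 180 of 180 columns (100% of 3127002 values within 0.01 read), and 0 of 2446332 values differed between tables. Genes with a normalised count of at least 10 in at least 3 libraries were tested with limma 3.58.1 (intensity trend, two-sided) in R 4.3.3 on log2(normalised count + 1), over the 6 libraries of each comparison. Interactions and levels used median-of-ratios factors over all 36 libraries. Such fold changes understate the change of low genes. Alternatives were edgeR 4.0.16, DESeq2 1.42.0, TMM factors, a pseudocount of 5, no filter, all 18 libraries of a time point, a replicate block and leaving out each library. The scripts were tested on simulated data.

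The replicate numbers 1 to 3 of the LPS groups and 4 to 6 of the vehicle groups were taken to pair libraries where, in all 3 pairs, the deviations from the group means correlated above 0.1 over genes. This held for DMF against LPS (lowest r = 0.169 at 4 h and 0.225 at 24 h), MMF against LPS at 24 h (0.331), CBD against LPS (0.242 and 0.126), DMF against MMF at 24 h (0.202), DMSO against EtOH (0.305 and 0.184), and 24 h against 4 h with LPS (0.151) and MMF (0.141). In CBD against LPS at 24 h and in 24 h against 4 h with MMF, 2 of 3 libraries correlated best with their own number. In the other comparisons taken as paired, all 3 did. The sources call the cultures independent experiments of 1 line. No 2 libraries of a group were copies (chi-square per degree of freedom 4.60 to 29.1). The members, gene lists and tests were chosen with earlier results of these data known. The named list genes were the up to 3 called genes with the largest rise and the up to 3 with the largest fall in each comparison, and the genes most like a member were the 5 with the highest Pearson correlation.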

Additional observations from a re-analysis of the deposited data

Results flagged for a closer look

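The following effects differed between 24 h and 4 h by the interaction term (limma, 12 libraries). The effect of DMF over LPS at 24 h minus that at 4 h was, on the log2 scale, -2.20 for Gclm, -1.35 for Gclc, -1.25 for Gsr, -1.21 for Slc7a11 and -1.01 for Gss, with adjusted p from 3.75e-06 to 0.00365. The difference of DMF minus MMF changed by -2.01 for Gclm, -1.27 for Gsr, -1.11 for Gclc, -1.02 for Gss and -0.82 for Slc7a11, with adjusted p from 2.92e-05 to 0.0224. The effect of CBD over LPS was higher at 24 h for Slc7a11 by 1.07, Gclm by 0.86, Gpx4 by 0.67 and Gclc by 0.32, and lower for Glrx by -1.54, with adjusted p from 9.78e-05 to 0.0426.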

How the results depend on the processing

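The number of members called was recomputed for 30 comparisons and interactions. TMM factors and edgeR kept each number within 1.5 times its value, and so did a pseudocount of 5, which like DESeq2, no filter and the fit to 18 libraries was not run for the interactions. DESeq2 called 4 of 8 for LPS against DMSO at 24 h, 4 and 3 for MMF against LPS at 4 h and 24 h, and 1 for 24 h against 4 h with LPS. It called 22.5%, 0.464%, 0.147% and 47.7% of all genes in this order. With no filter on low values 1 was called for MMF against LPS at 24 h (0.0173% of all genes) and 1 for 24 h against 4 h with LPS (31.9%). In a fit to all 18 libraries of the time point, 4 were called for LPS against DMSO at 24 h, 5 for DMF against LPS at 24 h and 2 for MMF against LPS at 24 h. The shares of all genes called were 26.5%, 29.8% and 0.0345% in this order. With the replicate block, 6 were called for DMF against LPS at 24 h, 4 for MMF against LPS at 4 h and 4 at 24 h, 1 for DMSO against EtOH at each time and 5 for 24 h against 4 h with MMF. The block also raised the share of all genes called, to 39.1%, 1.57%, 1.78%, 7.65%, 0.171% and 56.0% in this order. For MMF against LPS at 4 h and DMF against MMF at 4 h the lowest correlation between same-numbered libraries was 0.081 and 0.042, so the numbers were not taken to pair them. There the block added Gclc and Gsr in the first comparison and Glrx in the second, where it called 15.3% of all genes, against 8.34% without it. In the interactions it added Glrx for DMF and for DMF against MMF (adjusted p = 0.00450 and 0.0176, limma). It called 24.2% and 24.3% of all genes there, against 16.3% and 13.5% without it. The interaction of DMF against MMF also blocks their 4 h libraries, for which the pairing was not met. For 24 h against 4 h with DMSO, where the pairing was not met either, the block added Gpx4 (adjusted p = 0.0150, limma). It called 56.5% of all genes there, against 51.6% without it. Beside these and the paired values given with the results, the block changed no call of a member.

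Without 1 library, between 2 and 4 members were called for LPS against DMSO at 24 h (4 without replicate 1 of LPS), between 1 and 2 for LPS against EtOH at 4 h (1 without replicate 3 of LPS or 4 or 6 of EtOH), between 3 and 5 for LPS against EtOH at 24 h (3 without replicate 3 of LPS or 6 of EtOH), between 1 and 2 for MMF against LPS at 4 h (1 without any replicate of MMF or 3 of LPS), between 0 and 2 for DMF against MMF at 24 h (0 without replicate 3 of MMF, 1 without replicate 3 of DMF or 1 of MMF), between 3 and 5 for LPS with MMF against DMSO at 4 h (3 without replicate 1 of MMF or 6 of DMSO) and between 1 and 4 for 24 h against 4 h with LPS (4 without replicate 2 at 4 h, otherwise 1). The shares of all genes called in these fits were not counted, so these numbers of members have no background beside them. The difference of Gpx4 between DMF and MMF, which was not called, ran from -0.001 to 0.111 at 4 h and from -0.018 to 0.179 at 24 h, and that of Glrx at 24 h from -0.067 to 0.171. Of 142 single-gene fold changes, 102 of them called, no other direction reversed. The calls of Slc7a11, Gclc, Gclm, Gss and Gsr for DMF against LPS at 4 h held in every fit run, that of Gss with adjusted p up to 0.0275 without 1 library (limma). With 3 libraries a group, small differences could not be resolved, and the cause of the changes between settings was not tested. The shallowest values were those of Gpx1, with 33 to 297 reads per library. Per kilobase of the longest transcript instead of all exon bases, Gpx4 remained the most abundant member at 1929 normalised counts, while the least abundant was Gpx1 at 142 and no longer Gss, then at 157.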

Other observations

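Esd, which hydrolyses S-formylglutathione, is described here after its values were seen. It was at 10099, 7751 and 8598 in LPS with DMF at 4 h and at 4337, 4017 and 4061 in LPS alone, and it rose by 1.08 ± 0.10 on the log2 scale (adjusted p = 0.000351, limma). At 24 h it was at 9866, 9188 and 10245 with CBD, 6344, 8029 and 7784 with DMF and 6902, 8192 and 7300 with MMF, against 4023, 5732 and 4948 with LPS alone. All libraries with a drug were above those without at that time. It rose with CBD (1.01 ± 0.12, adjusted p = 0.000141, limma) and DMF (0.60 ± 0.12, adjusted p = 0.00715, limma), and the value with MMF was 0.62 ± 0.12 (adjusted p = 0.605, limma).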
